A study of Mus musculus with 3 samples.

Results

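Eph receptors and ephrins were examined as candidate neighbours of sites occupied by LMX1B, a LIM homeodomain factor needed for dorsal identity of the limb. The members were 10 genes of this family, of 21775 protein-coding genes in all: the receptor genes Epha3, Epha4, Epha5, Epha7, Ephb1, Ephb2 and Ephb3 and the ligand genes Efna2, Efna5 and Efnb2. An interval (peak) was assigned to a member when its midpoint lay in the domain of that gene, which is the RefSeq gene body plus the flank on each side as far as the nearest other protein-coding gene, with each flank cut at 1 Mb. By this rule 32 of 4501 intervals of the validation ChIP and 6 of 1287 intervals of the first ChIP belonged to the members.

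Both ChIP samples came from C57BL/6 mice on embryonic day 12.5: buds of fore- and hindlimbs were frozen, pooled (2 runs of 48) and fixed with 1% formaldehyde for 15 min, and LMX1B was precipitated from 30 µg of chromatin with 20 µl of the polyclonal antibody BMO8. The validation ChIP, so called because its title names a validation of BMO8, has a track name without genotype. The first ChIP is marked as WT in its track name. The labels do not say whether the samples came from separate chromatin preparations, and whole limb buds hold dorsal and ventral mesenchyme, ectoderm, muscle precursors, vessels and nerves together. The input DNA, pooled from WT and mutant chromatin, has no interval list and is not analysed here. Each ChIP is a single sample, so there is no spread between replicates and no test between groups; all values below describe these lists. Intervals given with shares are 95% Wilson intervals and those given with densities are exact Poisson intervals, and both cover counting error only. Sequencing depth is unknown, because interval lists hold no read counts.

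Eph receptors are receptor tyrosine kinases whose ligands, the ephrins, are themselves held on the membrane of neighbouring cells. Ephrins of class A are anchored by a lipid and bind mainly EphA receptors. Ephrins of class B span the membrane and bind mainly EphB receptors, and Epha4 accepts ligands of both classes. At the base of the limb, motor axons choose between a dorsal and a ventral path. Axons of the lateral part of the lateral motor column carry much Epha4 and grow dorsally, away from ephrin-A in the ventral mesenchyme. Medial axons carry EphB receptors and grow ventrally, away from ephrin-B in the dorsal mesenchyme. Lmx1b is required in the dorsal mesenchyme for this choice, and Epha4 is itself patterned in limb mesenchyme.

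More members had an interval of the validation ChIP in their domain than of the first ChIP, whose list is shorter. Within these domains, with flanks cut at 1 Mb, EphA receptor genes held every site found in both. A validation interval lay in the domain of 8 of the 10 members (49.0 to 94.3%), where 16.4% of all protein-coding genes had one. A first-ChIP interval lay in the domain of 4 of 10 (16.8 to 68.7%), against 6.61% of all protein-coding genes. A shared interval, one of the first ChIP that overlaps a validation interval by at least 1 bp, lay in the domain of 3 of 10 (10.8 to 60.3%), against 3.71%. The 3 genes were Epha3, Epha5 and Epha7, with 1 shared interval each. Ephb2 and Efna2 had no interval of either list. The members were chosen with earlier results of these data known, so these shares are descriptions.

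The members had long domains. The domains of the members had a median length of 1348 kb, while that of all protein-coding genes was 77.9 kb, and a longer domain has more room for intervals. Of the 7 members whose domain reached 1 Mb, all 7 had a validation interval (lower bound 64.6%), 4 had a first-ChIP interval (57.1%, 25 to 84.2%) and 3 had a shared one (42.9%, 15.8 to 75.0%). The same shares over all 974 protein-coding genes with a domain of 1 Mb or longer were 56.5%, 29.5% and 22.4%. The 974 include genes of chromosome Y, whose domains held no interval of either list and which lower these shares. They also lower the other shares and the density given below for domains of 1 Mb or longer, and they raise the share without any interval. For first-ChIP and shared intervals the counting intervals of the members include the shares over these long-domain genes, and with 7 genes a difference of that size was not resolved. The higher validation share is a description only and was not tested, since the members were chosen with earlier results of these data known.

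**Figure D1:**
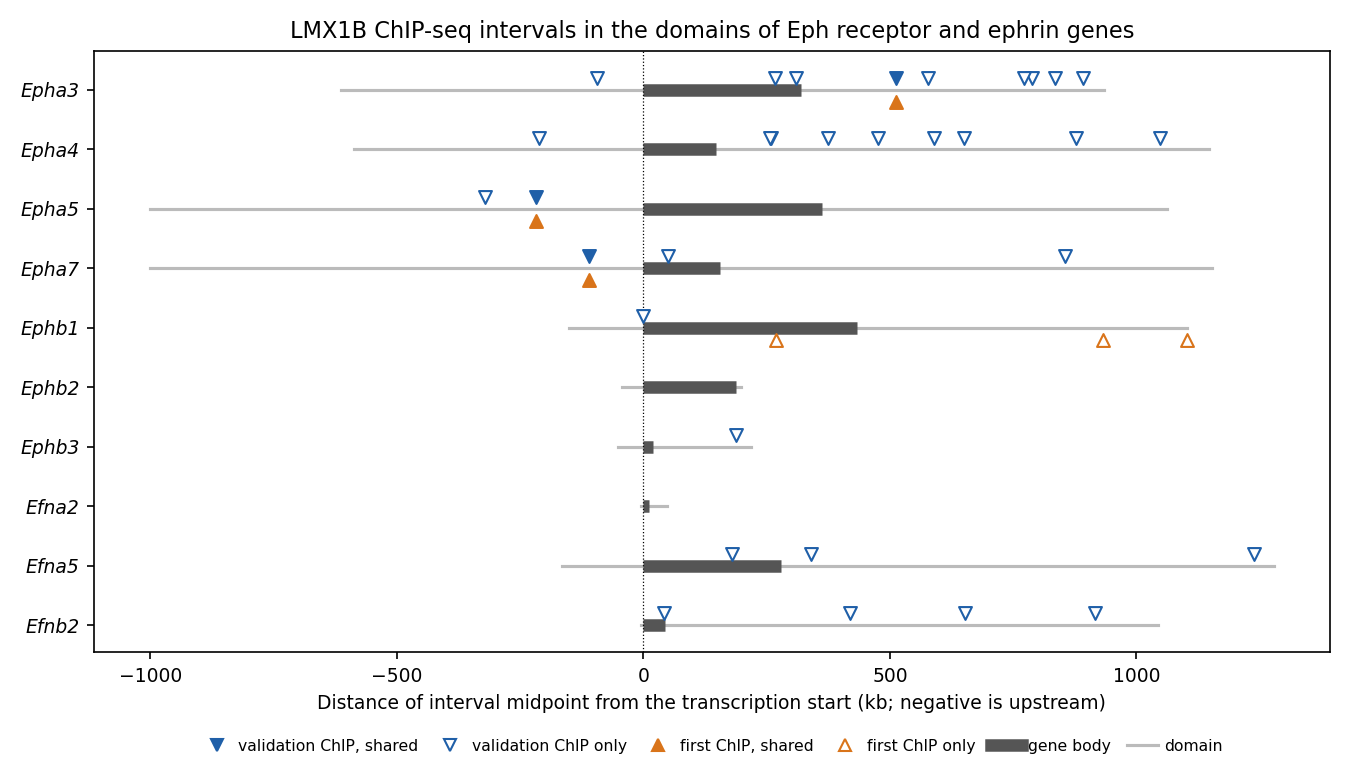
Midpoints of LMX1B ChIP-seq intervals along each member's domain, as the distance in kb from the annotated transcription start, with upstream to the left. Downward triangles are validation-ChIP intervals and upward triangles first-ChIP intervals, filled where shared; thick bars are gene bodies and thin lines domains. Filled triangles occur at Epha3, Epha5 and Epha7 and lie outside the gene bodies, and Epha3 and Epha4 carry 9 validation intervals each.

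The shared site of Epha7 had the highest validation score of all intervals in the members' domains. Epha7 encodes an EphA receptor (chr4:28813066-28967503, plus strand, mm10). Its site was listed at chr4:28702818-28703654 in the validation ChIP, with a summit score of 18, and at chr4:28703052-28703785 in the first ChIP, with a score of 22. The 2 lists placed the summit at the same position, 28703264. Of the 5788 summits of both lists, 5491 lie at a multiple of 16 bp. The same position thus means the same step of 16 bp, not agreement to the base. Across all 707 shared pairs the median distance between summits was 64 bp. The site lay outside genes, 110 kb upstream of the transcription start of Epha7, and no other protein-coding gene was nearer. A validation score of 18 stood at the 89.9th percentile of its list and the first-ChIP score of 22 at the 66.0th percentile of its own. Scores have no stated unit and were read only within a list. Epha7 also had 2 intervals of the validation ChIP alone, each with a score of 10: chr4:28863215-28863702, inside the gene body and 50.3 kb from its start, and chr4:29667495-29667820, 700 kb beyond its 3′ end.

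The shared site of Epha5 lay upstream as well. Epha5, which encodes another EphA receptor, occupies chr5:84054761-84417818 on the minus strand. Its site was listed at chr5:84635426-84636033 (score 13) in the validation ChIP and at chr5:84635460-84636022 (score 23) in the first ChIP, with summits 32 bp apart. It was 218 kb upstream of the annotated start. The predicted protein-coding gene Gm42163, whose body overlaps that of Epha5, came closer, at 169 kb, so the site belongs to Epha5 under the domain rule but not by nearest gene. The other interval of the Epha5 domain, chr5:84737990-84738479, was in the validation ChIP only, with a score of 10, and lay 320 kb from the gene body on the same side.

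At Epha3 the shared site lay on the other side of the gene. Epha3 (chr16:63543532-63864175, minus strand) encodes the receptor for which ephrin-A5 is a high-affinity ligand. The validation ChIP listed its site at chr16:63351600-63352228, with a score of 12, and the first ChIP at chr16:63351578-63352004, with a score of 23. Summits were 48 bp apart. The site was 192 kb beyond the 3′ end, or 512 kb from the transcription start, outside any annotated gene. The first-ChIP scores of 23 at Epha3 and Epha5 stood at the 72.8th percentile, and their validation scores of 12 and 13 at the 60.8th and 69.7th. All 3 sites are also among the 735 Active Regions deposited with the lists, to which 57.1% of first-ChIP intervals belong. Every first-ChIP interval that overlaps a validation interval is an Active Region, so membership there is not independent of the overlap.

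Epha3 and Epha4 held 18 of the 32 validation intervals. Each had 9, where 5.75% of the protein-coding genes with a domain of 1 Mb or longer had at least as many. That cut was set by the counts of these 2 genes, so the share is a description. Of those of Epha3, 2 lay in the gene body, 1 lay 94.1 kb upstream of the start (chr16:63958033-63958546, score 9) and 6 lay beyond the 3′ end. The highest of the 8 that were not shared, chr16:62971689-62972245 with a score of 13, was 572 kb from Epha3 and 42.6 kb from Pros1, the neighbouring gene for a plasma protein of anticoagulation. In all, 4 of the 9 were nearer to Pros1 than to Epha3. Scores ran from 9 to 13, and 5 of the 9 intervals had a score of 9.

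Epha4, the receptor that lateral motor axons need for the dorsal path, had no first-ChIP interval in a domain of 1734 kb. Epha4 (chr1:77367182-77515107, minus strand) had all 9 of its validation intervals outside the gene body and outside any annotated gene: 8 spread over the gene desert beyond its 3′ end, from 110 to 899 kb away, and 1 was 213 kb upstream (chr1:77727498-77728108, score 13). All 9 were nearer to Epha4 than to any other protein-coding gene. The highest scores belonged to a close pair, chr1:77256452-77256823 with a score of 16 and chr1:77257076-77257656 with a score of 17. Only 252 bp separated these intervals, about 110 kb beyond the 3′ end, and they stood at the 85.0th and 87.8th percentile of the validation list. The remaining scores were 9 to 14. No other 2 intervals of a list in the members' domains were closer than 16.3 kb between midpoints. The nearest first-ChIP interval on the side of Slc4a3, chr1:76065602-76066037, had a score of 26 and was shared. It lay 301 kb beyond the 1 Mb limit of the domain and 1301 kb from Epha4.

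The domains of the 3 EphB receptor genes, 1.77 Mb together, held 2 validation and 3 of the 6 first-ChIP intervals, all in different places and none shared. Ephb1 was the one member with an interval at its own transcription start. The validation interval chr9:102354550-102355102 covers the whole promoter window of Ephb1 (250 bases before to 50 after the start), and its midpoint is 0.133 kb upstream of the start. Its score was 9, the 15.9th percentile of its list, and the first ChIP listed nothing there. Of the 11 promoter windows that RefSeq gives for the 10 members, this was the only one overlapped by a validation interval, and none was overlapped by a first-ChIP interval. Of all 32851 promoter windows, 1.43% overlapped a validation interval and 0.813% a first-ChIP interval.

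The promoter of Ephb1 is printed because it is the only member sequence under an interval for which bases were at hand, and that of Epha5 because it is the only member promoter with TAATTA, the core bound by LIM homeodomain proteins. Both are from RefSeq (GRCm38.p6, the coordinates of mm10), minus strand, 5′ to 3′. Capitals mark the 31 bases around the summit of the validation interval in Ephb1, 75 bases upstream of the start, and TAATTA in Epha5. Most summits, this one included, lie at a multiple of 16 bp, so the marked bases and the distance are no more precise than that. The files also do not state whether summits count from 0 or 1, which may shift positions by 1 further base. The windows are chr9:102354644-102354943 and chr5:84417333-84417632.
Ephb1: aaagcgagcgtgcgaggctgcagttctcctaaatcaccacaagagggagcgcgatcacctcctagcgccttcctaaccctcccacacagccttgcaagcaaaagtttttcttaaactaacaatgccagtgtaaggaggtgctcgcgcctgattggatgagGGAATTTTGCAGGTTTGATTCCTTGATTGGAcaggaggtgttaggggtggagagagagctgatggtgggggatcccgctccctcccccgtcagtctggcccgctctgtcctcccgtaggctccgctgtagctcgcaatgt
Epha5: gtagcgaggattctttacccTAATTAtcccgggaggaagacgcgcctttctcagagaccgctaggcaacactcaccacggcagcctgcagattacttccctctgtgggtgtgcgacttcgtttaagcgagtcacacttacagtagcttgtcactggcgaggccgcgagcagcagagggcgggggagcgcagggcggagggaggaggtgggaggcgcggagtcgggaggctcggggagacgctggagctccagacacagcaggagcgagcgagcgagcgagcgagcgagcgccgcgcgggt
The window of Ephb1 under the interval held none of the 7 motifs searched on both strands, which were the LIM homeodomain core TAATTA, its flanked form TTAATTA, the general homeodomain core TAAT, the E-box CANNTG, the TALE site TGACAG, the AP-1 site TGANTCA and the GC box GGGCGG. The flanked form contains the LIM homeodomain core, and both contain the general one, so their matches overlap. The LIM homeodomain core occurred in 5.29% of all promoter windows, and the window of Epha5 that holds it had no interval of either list. The general core TAAT occurred in the windows of Epha5, Epha7 and Ephb3 and in 58.0% of all windows. E-boxes occurred in those of Ephb2, Ephb3 and Efnb2 (72.3% of all), the TALE site in that of Efnb2 (19.2%) and the GC box in those of 7 members (35.7%). The flanked form and the AP-1 site occurred in no member window (3.07% and 7.81% of all). A match describes the letters of the window and does not show a bound site.

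Ephb1 also had all 3 first-ChIP intervals of the EphB genes, none of them shared. One, chr9:102086313-102086588 with a score of 18, lay in the gene body, 268 kb from the start. Another, chr9:101421997-101422308, had a score of 15, at the 4.16th percentile of the first list, and was 170 kb from the neighbouring gene Ppp2r3a. The third and highest, chr9:101251817-101252261 with a score of 24, lay 670 kb from Ephb1 and 0.207 kb from the gene end of Ppp2r3a, which encodes a regulatory subunit of protein phosphatase 2A. Ephb3 had 1 validation interval, chr16:21392590-21393549 with a score of 11, 170 kb beyond its 3′ end, close to the ends of the RefSeq genes Gm36150 and Gm36224 and 30.0 kb from Vps8. Ephb2, with a domain of 242 kb, had none.

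Within their domains, ephrin genes had validation intervals only. Efnb2, the ephrin-B ligand that repels EphB-bearing axons and is also a marker of arterial endothelium, had 4 in a domain of 1049 kb. The highest, chr8:7744111-7744797 with a score of 12, was 873 kb beyond the 3′ end, and the others had scores of 9 to 10. One of these, chr8:8619132-8619743, lay inside the gene body of Efnb2, 41.8 kb from the start. Efna5, which encodes ephrin-A5, had 3 in 1443 kb: chr17:61642113-61642814 (score 15), 960 kb beyond the 3′ end, chr17:62701890-62702888 (score 13) in the gene body and chr17:62540556-62540991 (score 9), 62.2 kb beyond the 3′ end. The interval in the body of Efna5 was 999 bp wide, the widest of the 32. Efna2, which encodes ephrin-A2, had none in its domain of 51.3 kb between Fam174c and Pwwp3a. The closest to Efna2 was a validation interval at chr10:80149328-80149829 with a score of 15, 29.9 kb away and beyond the neighbour Fam174c.

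By class, EphA receptor genes had 23 validation intervals (3.07 per Mb of domain, 1.94 to 4.6), ephrin genes 7 (2.75 per Mb, 1.11 to 5.67) and EphB receptor genes 2 (1.13 per Mb, 0.137 to 4.09). In the first ChIP the order differed: EphB receptor genes had 3 intervals (1.7 per Mb, 0.351 to 4.97), EphA receptor genes 3 (0.4 per Mb, 0.0825 to 1.17) and ephrin genes 0 (up to 1.45 per Mb). Shared intervals had 0.4 per Mb (0.0825 to 1.17) at EphA receptor genes, 0 at EphB receptor genes (up to 2.09) and 0 at ephrin genes (up to 1.45). These counting intervals overlap in each list, so neither an order of the 3 classes nor the restriction of shared intervals to EphA receptor genes was resolved. Among single members the density of validation intervals was 5.81 per Mb at Epha3 (2.66 to 11.0) and 5.19 at Epha4 (2.37 to 9.85). It was 3.81 at Efnb2 (1.04 to 9.76), 3.72 at Ephb3 (0.0941 to 20.7), 2.08 at Efna5 (0.429 to 6.08), 1.39 at Epha7 (0.287 to 4.07), 0.97 at Epha5 (0.117 to 3.50) and 0.797 at Ephb1 (0.0202 to 4.44). Neighbours in this order do not differ beyond their counting intervals.

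Validation scores in the members' domains ran from 9 to 18 with a median of 10, where the whole list runs from 6 to 55 with a median of 11. Of the 32 validation intervals, 15 (46.9%, 30.9 to 63.6) reached the list's median, as did 57.6% of the list. First-ChIP scores ran from 15 to 24 with a median of 22.5, and the list from 12 to 86 with a median of 20. Of the 6 first-ChIP intervals, 4 (66.7%, 30.0 to 90.3) reached the list's median, against 55.3% of the list. Widths were close to those of the lists, with a median of 580 bp in the validation ChIP (571 bp over the list) and 436 bp in the first ChIP (389 bp over the list). The 3 shared sites had validation scores of 12, 13 and 18, and other intervals with scores of 12 and 13 were not shared. The close pair at Epha4 had higher validation scores than 2 of the shared sites and no partner in the first ChIP. The same holds for an interval of score 14 at Epha4 and one of score 15 at Efna5.

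**Figure D2:**
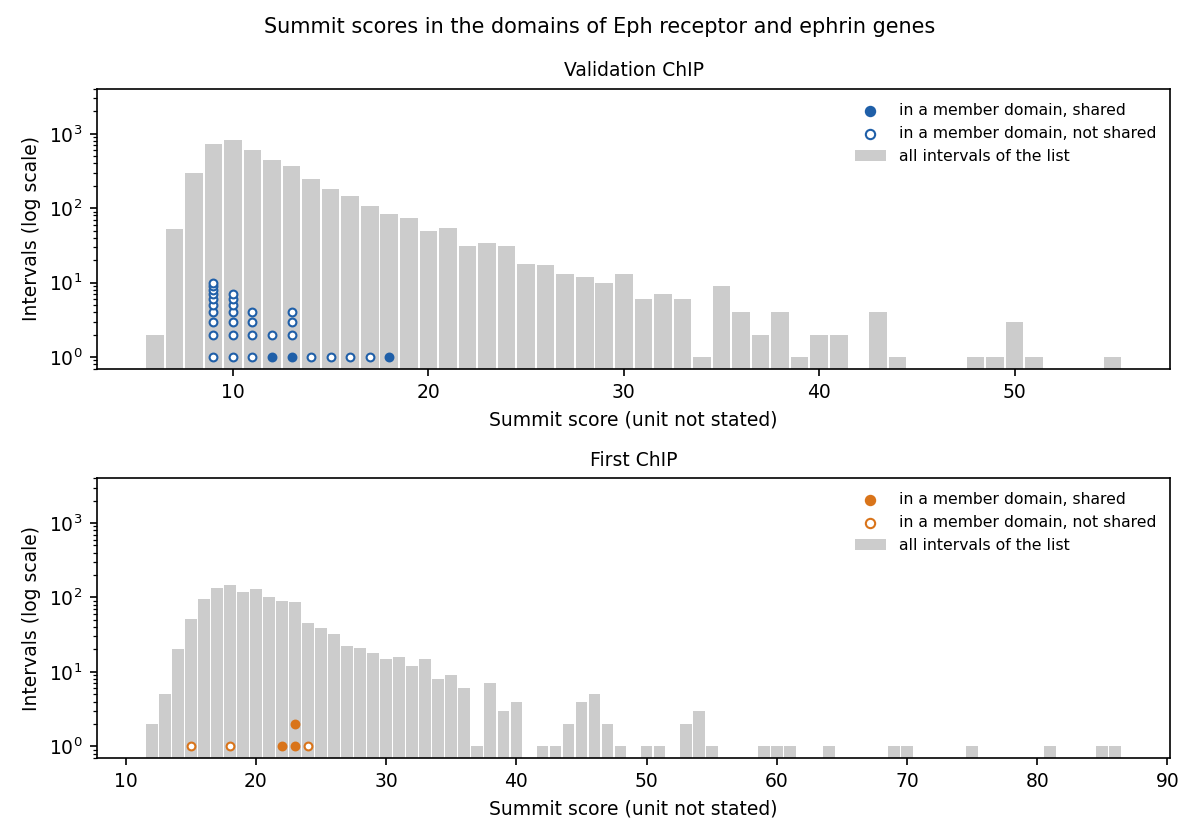
Summit scores (horizontal axis, unit not stated) of the validation ChIP above and the first ChIP below. Grey bars count all intervals of the list on a log axis, and circles count those in the members' domains, filled where shared, so that the top circle of a column marks the members' count. Circles lie between 9 and 18 in the validation ChIP and between 15 and 24 in the first ChIP, far from the highest scores of 55 and 86.

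The share of intervals found in both ChIPs was near that of the lists. Of the validation intervals in the members' domains 3 of 32 were shared (9.38%, 3.24 to 24.2), against 15.6% of all validation intervals. Of the first-ChIP intervals 3 of 6 were shared (18.8 to 81.2%), against 54.9% of all. Both counting intervals include the share of the whole list.

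Intervals of the members lay mainly outside genes, as did most of the members' domain length. Of the validation midpoints 25 of 32 (78.1%, 61.2 to 89.0) were outside genes, 5 (15.6%) in a gene body and 2 (6.25%) within 1 kb of a gene end. Over the whole validation list these shares were 37.7%, 46.1% and 16.2%. The members' domains themselves are 76.5% outside genes, 21.4% in gene bodies and 2.08% within 1 kb of a gene end. The share of validation midpoints outside genes is thus close to that of the domain length. Of the first-ChIP midpoints 4 of 6 were outside genes, 1 in a gene body and 1 at a gene end, while the whole first list had 34.5%, 37.9% and 27.6%. Relative to the member itself, 21 of the 32 validation midpoints lay beyond the 3′ end, 6 upstream of the start and 5 in the body. The 21 beyond the 3′ end are 65.6% (48.3 to 79.6), and that side makes up 52.8% of the members' domain length, which lies within the interval. The upstream side makes up 30.7% and the member's body 16.6%.

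Densities per Mb of domain are given as a description, since the members were chosen with earlier results of these data known. The density of validation intervals was 2.71 per Mb (1.85 to 3.83) in the 11.8 Mb of the members, against 1.70 (1.65 to 1.75) over all protein-coding domains and 1.52 (1.45 to 1.60) over those of 1 Mb or longer. Without Epha3 and Epha4, a choice made after their counts were seen, the other 8 members had 1.64 per Mb (0.898 to 2.76). The whole family of 22 genes, with the 12 not chosen, had 2.25 per Mb (1.55 to 3.15). That interval includes the 1.70 over all protein-coding domains, while the 1.52 over those of 1 Mb or longer lies just below it. The density of first-ChIP intervals was 0.508 per Mb (0.186 to 1.11) in the members and 0.485 (0.459 to 0.513) over all protein-coding domains. Shared intervals had 0.254 per Mb (0.0524 to 0.742) in the members and 0.266 (0.246 to 0.286) over all.

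**Figure D3:**
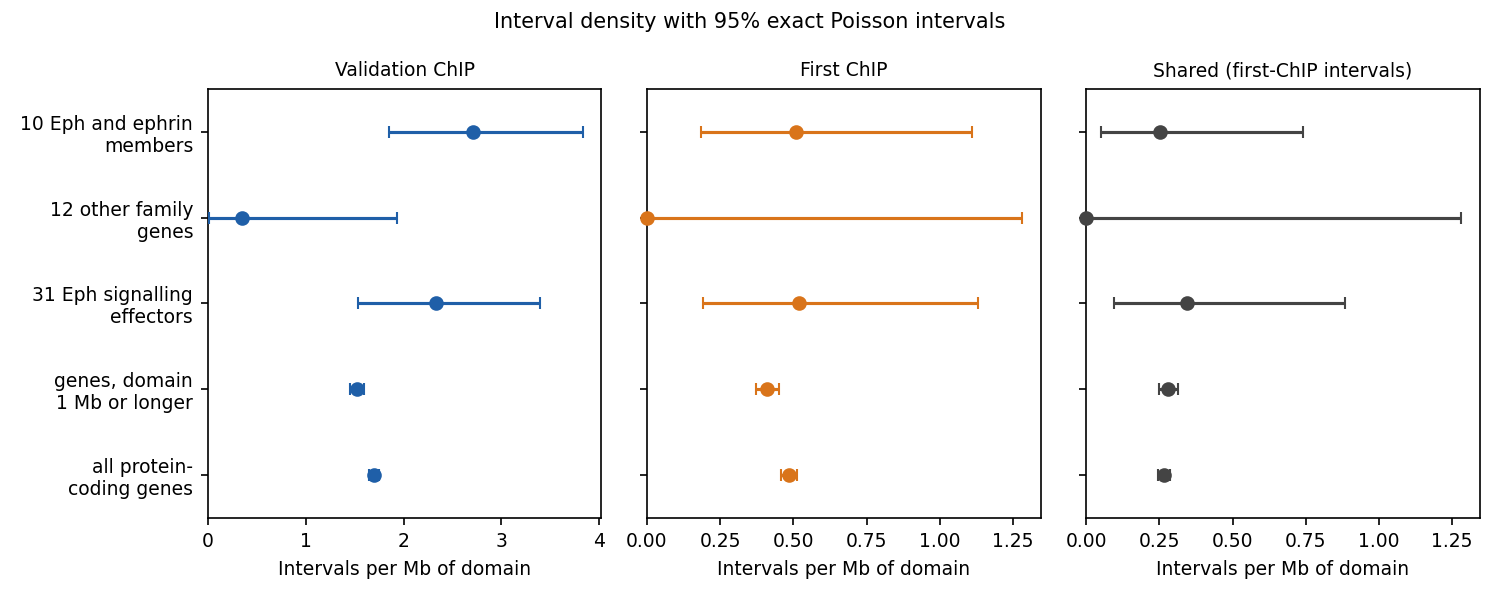
Intervals per Mb of domain (horizontal axis) in the validation ChIP, in the first ChIP and shared by both, for the 10 members, the 12 other family genes, 31 Eph signalling effectors and the protein-coding background. Points are densities and bars 95% exact Poisson intervals; the members stand at 2.71 per Mb in the validation ChIP, and all protein-coding domains at 1.70.

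The 12 Eph and ephrin genes outside the member list held 1 interval in all. Among Epha1, Epha2, Epha6, Epha8, Epha10, Ephb4, Ephb6, Efna1, Efna3, Efna4, Efnb1 and Efnb3, Efnb1 alone had an interval, a validation interval at chrX:99248936-99249595 with a score of 14, 100 kb beyond its 3′ end. Efnb1 encodes the X-linked ephrin-B1. That is 1 of 12 genes (1.49 to 35.4%) with a validation interval and 0 of 12 (up to 24.2%) with a first-ChIP or a shared one, where the shares over all protein-coding genes were 16.4%, 6.61% and 3.71%. Per Mb they had 0.347 validation intervals (0.00878 to 1.93) and 0 first-ChIP intervals (up to 1.28), and these counting intervals include the densities over all protein-coding domains, so a lack was not resolved. Their domains had a median length of 64.0 kb and covered 2.88 Mb together. Epha6 is the exception in length: its domain of 1972 kb, longer than that of Epha3 or Epha4, held no interval of either list. Neither did 42.4% of protein-coding domains of 1 Mb or longer, a share that the genes of chromosome Y raise. Over the whole family of 22 genes, 9 (40.9%, 23.3 to 61.3) had a validation interval, 4 (18.2%) a first-ChIP interval and 3 (13.6%, 4.75 to 33.3) a shared one.

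Genes taken as effectors of Eph and ephrin signalling were described beside the family. The part each plays in that signalling was not tested here. Of 31 such effectors, 13 (41.9%, 26.4 to 59.2) had a validation interval, 4 (12.9%, 5.13 to 28.9) a first-ChIP interval and 3 (9.68%, 3.35 to 24.9) a shared one, where the shares over all protein-coding genes were 16.4%, 6.61% and 3.71%. The effectors had longer domains, with a median of 196 kb against 77.9 kb over all protein-coding genes. Their density of validation intervals was 2.33 per Mb (1.54 to 3.39). The density over all protein-coding domains, 1.70, lies within this counting interval, and that over domains of 1 Mb or longer, 1.52, lies just below it. The 3 with a shared interval were Pik3r1, which encodes a regulatory subunit of phosphoinositide 3-kinase, Pdzrn3, which encodes a ubiquitin ligase with PDZ domains, and Grip1, which encodes a PDZ adaptor that binds ephrin-B. Pik3r1 had 2 shared sites. The first was listed at chr13:101427594-101428288 (score 14) in the validation ChIP and at chr13:101428012-101428407 (score 20) in the first ChIP. Summits of this pair were 347 bp apart and its overlap was 277 bp, so it is shared by the 1 bp rule but not by the stricter pairing rules given below. The second, at chr13:102510556-102511454 (score 23) and chr13:102510670-102511092 (score 24), was nearer to Cd180 than to Pik3r1. The site of Pdzrn3 was chr6:100976865-100977660 (score 20) in the validation ChIP and chr6:100977055-100977468 (score 22) in the first ChIP. Its summits were at the same step of 16 bp, and it was nearer to Ppp4r2. That of Grip1 was chr10:119761650-119762248 (score 20) and chr10:119761841-119762124 (score 18), inside the gene body, within 1 kb of the ends of Gm46207 and Grip1os2.

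**Figure D4:**
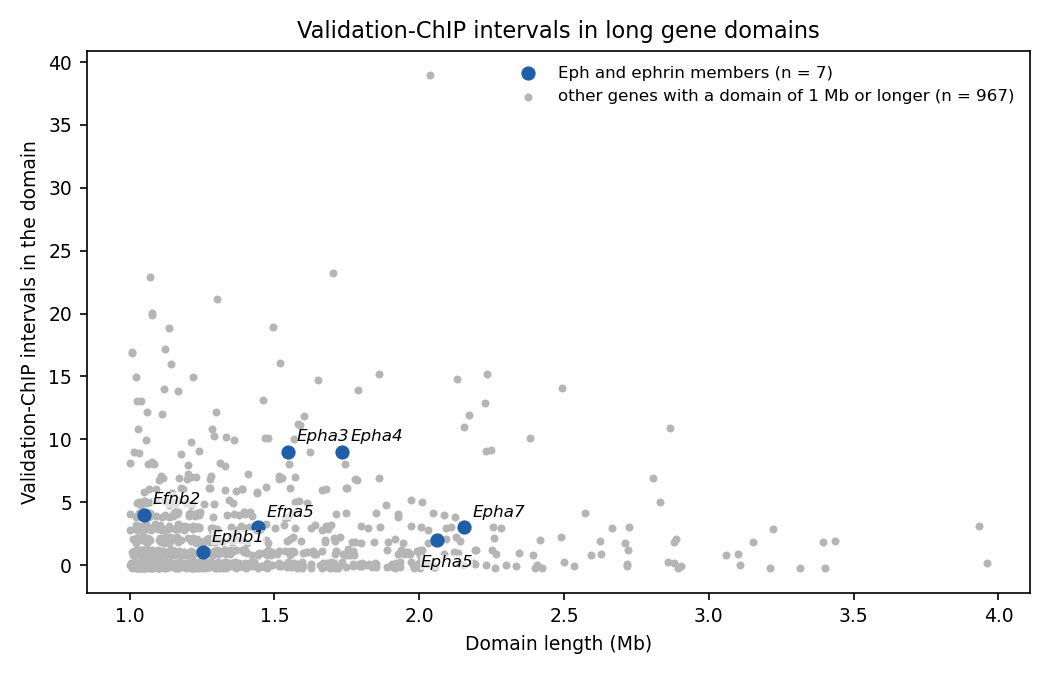
Validation-ChIP intervals per domain (vertical axis) against domain length in Mb (horizontal axis) for genes with a domain of 1 Mb or longer; grey points are jittered vertically. The 7 members of that length have 1 to 9 intervals, with Epha3 and Epha4 at 9 and Ephb1 at 1.

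The genes most like Epha3, the member with a shared and the most validation intervals, were sought among 1297 candidate protein-coding genes with a domain within 2-fold of its length, by the counts in both lists. Mycn had the same counts as Epha3 (9 validation, 1 first-ChIP and 1 shared interval) in a domain of 838 kb. Lrig3 and Ptprc followed, with 10, 1 and 1 in 1478 and 1211 kb. These counts rest on 2 samples.

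Borders decide a few of the assignments. The interval closest to a border on the inside was the first-ChIP interval at Ppp2r3a, whose midpoint was 0.206 kb inside the domain of Ephb1. The closest on the outside was a validation interval at chr16:21423786-21424258 with a score of 8, which was 0.905 kb beyond the domain of Ephb3, in Vps8. At the 1 Mb limit the closest inside was the Efna5 interval of score 15, 39.5 kb from the limit, and the closest outside a validation interval at chr1:76323469-76324247 with a score of 10, 43.3 kb beyond that of Epha4. Beyond the 1 Mb limit on the 3′ side of Efnb2, the next interval of each list was a shared site. It was listed at chr8:7322876-7323821 (score 21) in the validation ChIP and at chr8:7323065-7323571 (score 34) in the first ChIP. Both scores are above the highest in the members' domains. The site lay 294 kb beyond the limit and 1294 kb from Efnb2, so the lack of a shared interval at ephrin genes depends on the limit. By nearest gene, 25 of the 32 validation intervals and 3 of the 6 first-ChIP intervals belonged to the member.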

How the data were processed

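Intervals and summits were those the authors deposited for each ChIP sample. Column 4 of the deposited lists is of another kind than a count or signal: a whole-number summit score, with no stated unit, or an interval name, per the file headers. BWA was used and the build was mm10, per the submitters' processing notes; for the peak caller and its threshold, nothing is stated in the labels or files used here. Lists were called per sample and tied to samples by track name. The file of the validation sample repeats all 1287 first-ChIP intervals, with 1 summit moved by 16 bp; this copy was used and counted once. Interval coordinates were converted to count from 1. Summit positions are as deposited, and 5491 of 5788 lie at a multiple of 16 bp, so they are mostly given in steps of 16 bp. They may also be off by 1 bp, since their counting is not stated.

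Gene bodies came from a RefSeq table of GRCm38.p6 with 49599 genes, 21775 of them protein-coding, with 340 entries left out for starting before 3 Mb. Genes that overlap a member do not end its domain. Strands and starts came from RefSeq promoter windows of 300 bases. No genome sequence was used here, so sequence under distal intervals and the planned motif count there are missing. The members, and the lists of other family genes and effectors, were chosen with earlier results of these data known.

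All shared intervals in a member's domain are named, and of intervals in 1 list the highest of each member; others were named after their values were seen. The genes most like Epha3 had the smallest Euclidean distance over log2(1 + count) of the 3 counts, at most 3 genes. Overlap and domain functions were tested on simulated data. Python 3.11.15, pandas 2.3.3, SciPy 1.17.1 and statsmodels 0.14.6 were used.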

Additional observations from a re-analysis of the deposited data

How the results depend on the processing

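Of 55 alternative values for 10 results, 42 stayed within 1.5-fold (numbers of members) or within the counting interval of the reported value. All 3 ways of pairing intervals (overlap of 1 bp, overlap of at least 50% of both, summits within 100 bp) gave the same 3 members and the same shared percentages. The width of the window changed most: members with a shared interval numbered 0 with the gene body extended by 50 kb and 0 in the gene body alone, since each shared site lies at least 110 kb from its gene, and shared percentages of both lists and the density of shared intervals were 0 there too. Members with a first-ChIP interval numbered 1 in each of these windows, and members with a validation interval 4 in the gene body alone. At or above the median score of their list, validation intervals had a density of 1.27 per Mb (0.711 to 2.1), as fewer were counted. No density over all protein-coding domains was computed at that cut, so this value cannot be set against the one for all intervals. Without Epha3 and Epha4 (chosen after seeing the data) the density of all validation intervals was 1.64 per Mb. By nearest gene 2 members, Epha3 and Epha7, had a shared interval. No setting moved the 1 Mb limit outward. Beyond it, the nearest first-ChIP interval on the 3′ side of Efnb2 and that on the Slc4a3 side of Epha4 were both shared. No paired analysis was possible because each ChIP is 1 sample and no test was made. Depth limits what an empty domain shows: a site below the calling threshold of a list is not listed, so the lack of a first-ChIP interval at Epha4 does not show that the protein was absent there.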
